A study of Mus musculus with 12 samples.

Results

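The small proline-rich proteins encoded by Sprr1a, Sprr1b, Sprr2d, Sprr2e, Sprr2f, Sprr2g, Sprr2i and Sprr3 were followed across mouse tongue tumours and normal tongue. Every probe annotated to these 8 symbols was taken, which gave 8 probes, 1 a gene, of 25697 probes and 16593 annotated genes on the array. The genes were chosen by their tumour and normal signals on these same arrays, most of them being far higher in the tumours, so those levels are given as a description and carry no test. RNA was hybridised to Illumina single-colour bead arrays, 1 array for each of 12 tissue pieces. The 7 tumour pieces came from tongues of B6 mice aged 8 months that received 4NQO (4-nitroquinoline 1-oxide, a carcinogen that damages DNA) at 200 µg/mL and arecoline (the main alkaloid of the areca nut) at 500 µg/mL over 8 weeks and were then left for 20 weeks. The 5 normal tongue pieces came from B6 mice of the same age that received DMSO over the same weeks and had the same rest. The labels do not say whether each piece came from its own animal, so every p-value below measures only the spread between pieces, which may be technical. The study asked which protein-coding genes differ between such oral tumours and normal tongue.

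Small proline-rich proteins are precursors of the cornified envelope, the insoluble protein shell that replaces the plasma membrane of a keratinocyte at the end of its differentiation. Transglutaminases join them through glutamine and lysine residues at their ends, and they bridge larger envelope proteins such as loricrin. Their genes lie next to each other in the epidermal differentiation complex, and the amount of each relative to the others varies between stratified epithelia and with stress, wounding and irritation.

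Levels are given as log2 signal, the probe intensity after background correction and quantile normalisation, and a gene is called higher or lower in tumours where limma's p, adjusted over all probes kept, is under 0.05. Each array had 14745 to 15388 probes above background. Arrays correlated at r = 0.925 to 0.984 among tumours, 0.974 to 0.996 among normals and 0.805 to 0.911 between the groups, across genes. A pair of pieces stood apart in their tissue markers. The salivary gland score, the mean log2 signal of 3 measured salivary genes of 10 listed, was 8.86 in tumour 2 and 6.35 to 6.63 in the other tumours, against 13.55 in normal 1 and 7.20 to 8.01 in the other normals. Tumour 2 also had the highest skeletal muscle score of the tumours, at 12.46 over 11 genes. Without these 2 arrays the differences of the 8 Sprr genes were 0.56 to 8.45 on the log2 scale, against 0.55 to 8.48 with all 12. All 8 measured reference genes, a list of housekeeping genes, were called higher in tumours, with a median difference of 0.62, and centring the arrays on them moved the median difference of all genes to −0.56, against 0.07 in the quantile-normalised values.

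Promoter windows were read for 7 of the 8 genes from RefSeq on GRCm38.p6, each running from 250 bases before the annotated start to 50 bases after it. Sprr2g had no window in the table. The windows are printed because the Sprr2 genes, which differed most between the groups, share sequence that Sprr1a, Sprr1b and Sprr3 lack. Capitals mark matches to TGANTCA (a site of the AP-1 factors), ATTTGCAT (the octamer site of POU factors) and TATAAA (the TATA box), searched on both strands. The windows are Sprr2d at chr3:92338890-92339189 (plus strand), Sprr2e at chr3:92351893-92352192 (plus), Sprr2f at chr3:92364937-92365236 (plus), Sprr2i at chr3:92407741-92408040 (plus), Sprr2k, a neighbour outside the 8, at chr3:92432332-92432631 (plus), Sprr1b at chr3:92438730-92439029 (minus), Sprr3 at chr3:92458671-92458970 (minus) and Sprr1a at chr3:92485832-92486131 (minus). All are printed 5′ to 3′ in the direction of transcription.
Sprr2d: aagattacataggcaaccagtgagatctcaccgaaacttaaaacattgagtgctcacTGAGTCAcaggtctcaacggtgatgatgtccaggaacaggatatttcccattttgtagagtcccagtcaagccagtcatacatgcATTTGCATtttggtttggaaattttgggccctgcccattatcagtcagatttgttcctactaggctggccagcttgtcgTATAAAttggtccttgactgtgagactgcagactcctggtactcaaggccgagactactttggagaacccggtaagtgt
Sprr2e: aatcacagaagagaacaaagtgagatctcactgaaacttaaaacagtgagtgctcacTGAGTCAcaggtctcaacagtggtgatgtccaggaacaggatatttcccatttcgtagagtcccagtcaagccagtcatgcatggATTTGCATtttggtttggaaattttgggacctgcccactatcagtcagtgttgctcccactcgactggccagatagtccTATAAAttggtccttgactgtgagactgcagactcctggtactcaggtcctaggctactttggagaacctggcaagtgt
Sprr2f: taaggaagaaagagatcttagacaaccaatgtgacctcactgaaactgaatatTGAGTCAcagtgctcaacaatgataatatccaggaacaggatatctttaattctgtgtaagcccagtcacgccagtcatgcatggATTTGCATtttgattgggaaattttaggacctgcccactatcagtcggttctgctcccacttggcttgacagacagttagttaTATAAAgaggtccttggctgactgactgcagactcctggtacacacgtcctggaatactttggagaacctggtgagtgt
Sprr2i: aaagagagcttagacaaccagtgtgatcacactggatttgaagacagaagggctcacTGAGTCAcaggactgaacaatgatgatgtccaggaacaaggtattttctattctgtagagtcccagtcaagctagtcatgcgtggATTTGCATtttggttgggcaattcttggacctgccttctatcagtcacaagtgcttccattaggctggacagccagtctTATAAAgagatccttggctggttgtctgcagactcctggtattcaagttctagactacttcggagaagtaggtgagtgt
Sprr2k: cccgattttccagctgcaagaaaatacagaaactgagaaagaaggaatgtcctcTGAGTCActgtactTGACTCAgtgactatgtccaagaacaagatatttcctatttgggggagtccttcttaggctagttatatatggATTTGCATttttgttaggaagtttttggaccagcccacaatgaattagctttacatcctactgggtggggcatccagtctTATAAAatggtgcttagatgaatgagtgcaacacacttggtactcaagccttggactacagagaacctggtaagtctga
Sprr1b: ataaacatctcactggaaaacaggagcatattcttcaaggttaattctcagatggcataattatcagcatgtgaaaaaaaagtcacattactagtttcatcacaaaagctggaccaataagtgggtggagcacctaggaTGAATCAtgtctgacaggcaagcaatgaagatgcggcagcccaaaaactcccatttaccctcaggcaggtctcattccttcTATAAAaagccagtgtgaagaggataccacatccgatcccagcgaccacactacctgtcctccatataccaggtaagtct
Sprr3: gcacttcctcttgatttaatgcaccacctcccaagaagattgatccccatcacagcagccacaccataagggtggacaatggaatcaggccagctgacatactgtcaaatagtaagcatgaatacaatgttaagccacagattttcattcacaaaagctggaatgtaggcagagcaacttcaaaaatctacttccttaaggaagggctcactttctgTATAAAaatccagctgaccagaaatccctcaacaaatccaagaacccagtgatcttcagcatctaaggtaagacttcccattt
Sprr1a: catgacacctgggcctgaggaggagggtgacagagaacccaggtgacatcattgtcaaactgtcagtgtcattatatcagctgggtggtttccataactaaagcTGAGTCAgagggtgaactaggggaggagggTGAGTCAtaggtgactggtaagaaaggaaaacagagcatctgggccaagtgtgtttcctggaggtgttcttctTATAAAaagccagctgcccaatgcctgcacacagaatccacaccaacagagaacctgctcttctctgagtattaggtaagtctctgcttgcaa

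The AP-1 letters occurred in 6 of the 7 windows, all but that of Sprr3, against 7.81% of 32851 RefSeq windows. The octamer occurred in the windows of Sprr2d, Sprr2e, Sprr2f and Sprr2i and in none of Sprr1a, Sprr1b and Sprr3, against 1.74% of all windows. Both motifs together were found in those 4 windows and in 0.198% of all windows. The TATA letters were present in all 7 windows, against 13.6% of all windows. TGACNNNGC, the core of the antioxidant response element bound by NRF2, occurred in the windows of Sprr2f and Sprr1a, against 12.4% of all windows. In Sprr1a that match overlaps the AP-1 match that begins 146 bases before the start.

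The motifs also stood at like places. The AP-1 match began 193 bases before the start in Sprr2d, Sprr2e and Sprr2i and 197 bases before it in Sprr2f, and the octamer began 108 bases before it in the same 3 genes and 112 bases before it in Sprr2f. The TATA letters began 29 bases before the start in all 4. In Sprr1b the AP-1 match lay at 111 bases before the start, and in Sprr1a a pair lay at 146 and 116 bases before it. Aligned end to end, the windows of these 4 Sprr2 genes were 76.3% to 89.7% identical, with Sprr2d and Sprr2e the closest pair. Against Sprr1a, Sprr1b and Sprr3 they were 58.3% to 61.7% identical, a range like the 57.7% to 60.7% of any Sprr window against that of Sprr4. The 16 bases CTGCAGACTCCTGGTA were common to all 4 and were found in 0 other windows of the RefSeq table. That run was picked as the longest one common to the 4 windows, and it spans the annotated start. Most runs of that length would be absent from the other windows by length alone. Matches of letters describe these windows and show no binding.

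**Figure D1:**
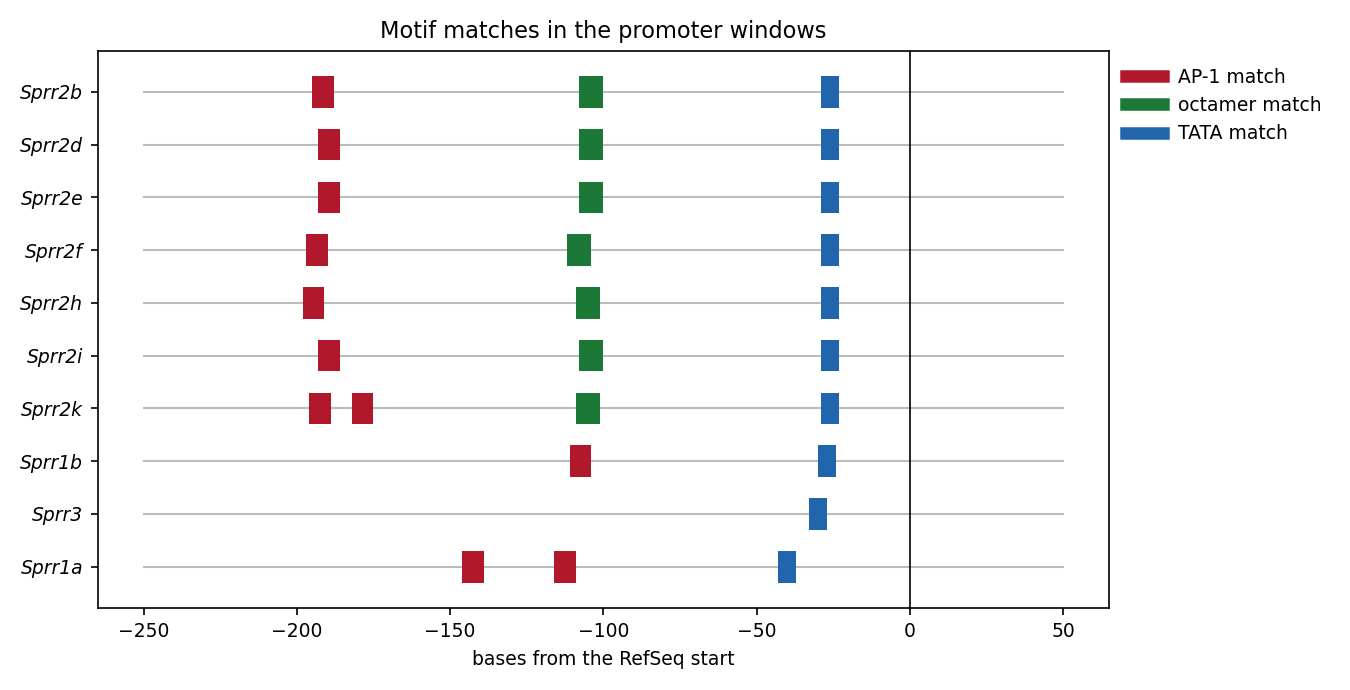
Places of the motif matches in the promoter windows of 10 Sprr genes, as bases from the RefSeq start on the horizontal axis, with red for AP-1, green for the octamer and blue for TATA letters. The Sprr2 windows shown carry all 3 at nearly the same places, while Sprr1b, Sprr1a and Sprr3 carry no octamer. The windows of Sprr2a1, Sprr2a2, Sprr2a3 and Sprr4 hold none of these letters and are not drawn.

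All tumours were above all normals for each of the 5 Sprr2 genes among the 8, a pattern that 21% of all 10787 genes showed. Sprr2d (probe ILMN_2626516) had a log2 signal of 14.65 at its lowest, 14.87 at the median and 15.29 at its highest in tumours, against 6.25, 6.47, 6.47, 6.51 and 6.72 in normals 1 to 5. It was above background in 7 of 7 tumours and 4 of 5 normals, and the groups were 7.93 apart at their nearest, between tumour 4 and normal 5. The means were 14.97 ± 0.27 in tumours (SD, n = 7) and 6.48 ± 0.17 in normals (SD, n = 5), a difference of 8.48 (SE 0.13) or 358-fold. The difference ranked 1 among the 10787 genes measured. The highest value that any probe could take after quantile normalisation was 15.33, so the tumour values stood near the top of the scale.

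Sprr2e (probe ILMN_1249602) reached 12.16 at its lowest, 12.98 at the median and 14.22 at its highest in tumours, against 5.83, 5.90, 6.01, 5.81 and 5.95 in normals. None of the 5 normals was above background, while all 7 tumours were. The measured means were 12.98 ± 0.65 in tumours (SD, n = 7) and 5.90 ± 0.08 in normals (SD, n = 5), and set against the background threshold of the normal arrays Sprr2e was at least 91.3-fold higher in tumours. Tumour 7 stood above the other 6 tumours by more than 1 log2 unit.

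Sprr2f (probe ILMN_2695944) showed the same picture, with 12.02 at its lowest, 12.68 at the median and 13.71 at its highest in tumours, against 5.84, 5.85, 6.08, 6.04 and 6.13 in normals. It too was above background in all 7 tumours and in 0 of 5 normals. Its means were 12.81 ± 0.54 in tumours (SD, n = 7) and 5.99 ± 0.14 in normals (SD, n = 5), which made it at least 81.2-fold higher in tumours. Outside the tongue, Sprr2f is known as an oestrogen-responsive gene of the mouse uterus.

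Sprr2g (probe ILMN_2603791), which RefSeq annotates as a transcribed pseudogene, gave signal in every normal piece. Tumours had 11.70 at the lowest, 12.83 at the median and 13.53 at the highest, against 6.56, 7.23, 7.02, 6.62 and 6.99 in normals. Tumour 2 was the lowest of the tumours, and it was still 4.47 above the highest normal. Means of 12.77 ± 0.56 in tumours (SD, n = 7) and 6.89 ± 0.28 in normals (SD, n = 5) gave a difference of 5.89 (SE 0.25), or 59.2-fold.

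Sprr2i (probe ILMN_2948326) had 12.01 at the lowest, 12.97 at the median and 13.45 at the highest in tumours, against 6.45, 8.12, 7.86, 7.83 and 7.71 in normals. Normal 1, the piece with the high salivary score, was the low normal and the single one below background. Its means were 12.83 ± 0.51 in tumours (SD, n = 7) and 7.59 ± 0.66 in normals (SD, n = 5), a difference of 5.24 (SE 0.30) or 37.7-fold. Without normal 1 the difference was 4.94.

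The tissues also differed in makeup, and in bulk RNA fewer cells of a type and less RNA per cell cannot be told apart. The skeletal muscle score over 11 of 12 listed genes was 8.39 to 12.46 in tumours, against 13.54 to 13.99 in normals. The squamous epithelium score over 14 of 15 listed genes was 11.53 to 12.04 in tumours, against 10.29 to 10.82 in normals, with means of 11.72 ± 0.16 in tumours (SD, n = 7) and 10.62 ± 0.20 in normals (SD, n = 5). Its genes did not move alike. Limma called 11 higher and 2 lower, beside 32.5% and 23.6% of all genes, with Jup not called. Those lower were the keratins Krt15 (−2.25, adjusted p = 1.28e-05) and Krt14 (−0.30, adjusted p = 0.00342), with all tumours below all normals. The part of tissue makeup in the Sprr differences was not tested.

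**Figure D2:**
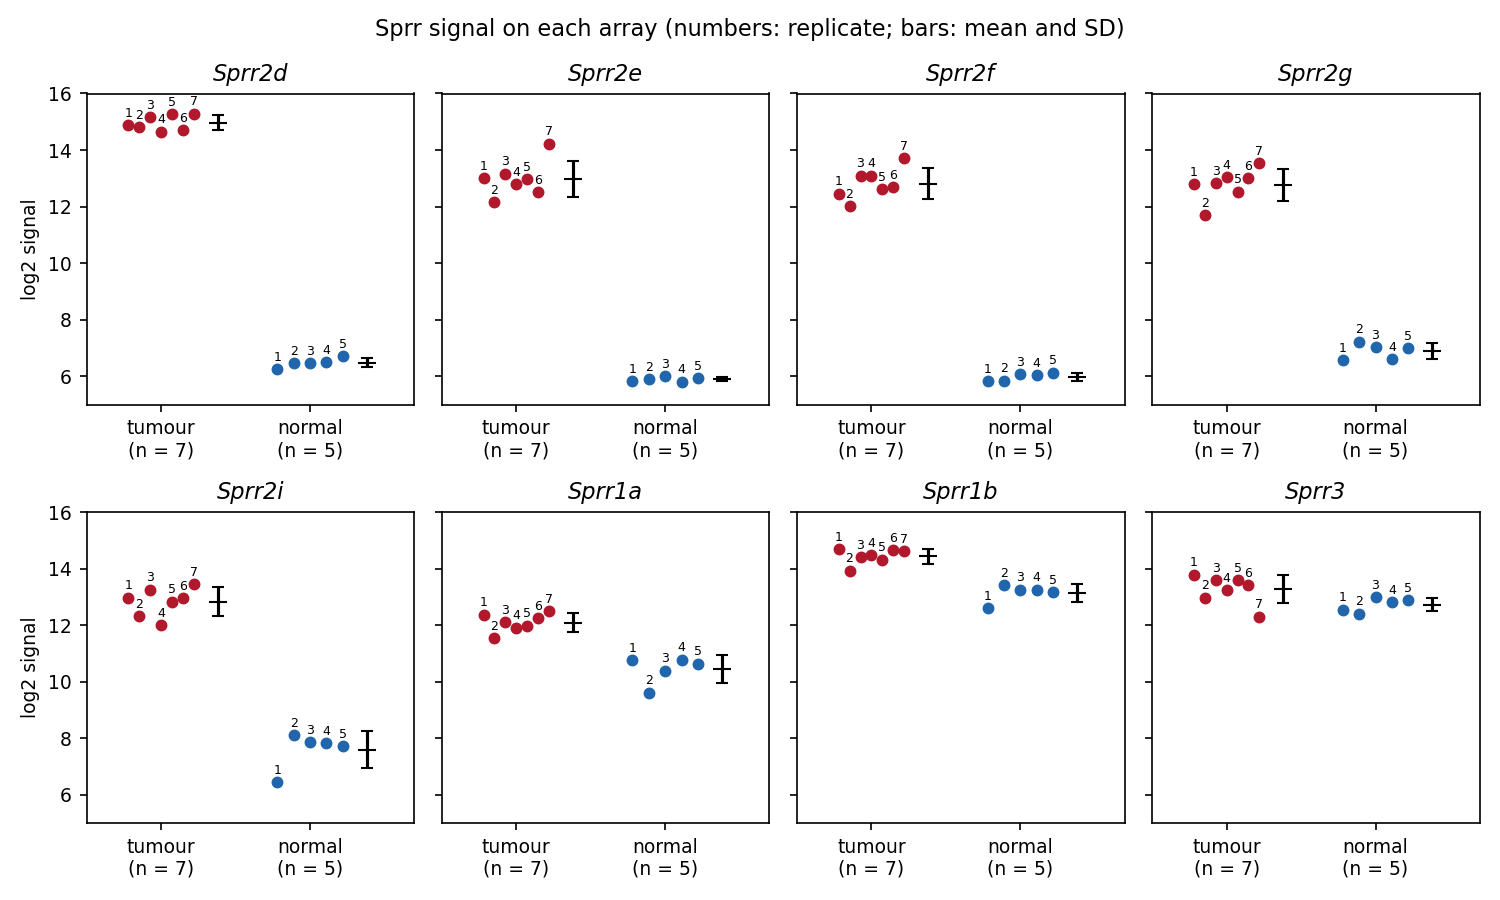
Log2 signal of the 8 Sprr genes on each array, tumours in red on the left and normals in blue on the right of each panel, numbered by replicate, with bars for the mean and SD. The groups are far apart for the 5 Sprr2 genes, near each other for Sprr1a and Sprr1b, and overlapping for Sprr3.

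The Sprr1 genes and Sprr3 were above background in every normal piece, and their groups lay nearer to each other. Sprr1b (probe ILMN_2699139) had 13.92 at the lowest, 14.48 at the median and 14.68 at the highest in tumours, against 12.59, 13.42, 13.26, 13.25 and 13.16 in normals. The groups did not overlap, but the lowest tumour, tumour 2, was only 0.50 above the highest normal. Means of 14.44 ± 0.27 in tumours (SD, n = 7) and 13.14 ± 0.32 in normals (SD, n = 5) differed by 1.30 (SE 0.16), or 2.47-fold. With normals at this level the largest difference the scale allowed was 2.20.

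Sprr1a (probe ILMN_2975250) is known outside epithelia for its rise in injured sensory neurons. It had 11.53 at the lowest, 12.11 at the median and 12.50 at the highest in tumours, against 10.77, 9.61, 10.40, 10.78 and 10.64 in normals. Tumour 2 was again the lowest tumour, and normal 2 the lowest normal. The means of 12.09 ± 0.32 in tumours (SD, n = 7) and 10.44 ± 0.49 in normals (SD, n = 5) differed by 1.65 (SE 0.21), or 3.14-fold. Here the scale left 4.89 above the normal mean.

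Sprr3 (probe ILMN_1248103), a protein abundant in the lining of the mouth and oesophagus, was the single member whose groups overlapped. It had 12.30 at the lowest, 13.41 at the median and 13.78 at the highest in tumours, against 12.55, 12.40, 12.99, 12.81 and 12.87 in normals. Of the tumours 5 were above all normals, tumour 2 lay among the normals, and tumour 7, which was the highest tumour for 6 of the 8 genes, lay below every normal. The means of 13.27 ± 0.50 in tumours (SD, n = 7) and 12.72 ± 0.24 in normals (SD, n = 5) differed by 0.55 (SE 0.22), and the sign turned, to −0.14, when arrays were centred on reference genes.

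Of the 8 genes 7 had all tumours above all normals, beside the 21% of all genes, and 5 differed by more than 5 log2 units, which held for 7 genes or 0.0649%. The others of those 7 genes were S100a9 and S100a8, at 7.39 and 6.55. These shares are printed as background only, since the same contrast chose the genes. All 8 probes passed the filter on low signal, 2 of them through the tumours alone. The median difference of the 8 was 5.56, beside 0.07 over all genes.

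Other Sprr genes on the array were not among the 8, and limma was used to test them. RefSeq places 17 Sprr genes in a row on chromosome 3, of which 4 (Sprr2a2, Sprr2a3, Sprr2c-ps and Sprr2h) had no probe here. Sprr2b (probe ILMN_1248780) rose to 9.63 ± 0.88 in tumours (SD, n = 7), against 6.84 ± 0.26 in normals (SD, n = 5), with a difference of 2.79 (SE 0.37, limma adjusted p = 3.35e-05). Sprr2k (probe ILMN_2990390) rose to 12.82 ± 0.67 in tumours, against 10.14 ± 0.41 in normals, a difference of 2.69 (SE 0.30, limma adjusted p = 9.19e-06). The pseudogene Sprr2j-ps (probe ILMN_2749198) rose by 2.66 (SE 0.21, limma adjusted p = 3.85e-07), with 9.05 ± 0.47 in tumours and 6.39 ± 0.18 in normals. In all 3 every tumour was above every normal, and none of these directions turned under another scaling.

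The first gene of the row behaved otherwise. For Sprr2a1 a first probe (ILMN_3071908) did not differ past the threshold (−0.06, SE 0.07, limma adjusted p = 0.508), although it was called lower with arrays centred on reference genes (−0.71, adjusted p = 5.08e-06). A second (ILMN_3150677) was called higher at 0.47 (SE 0.14, limma adjusted p = 0.0130), which turned to −0.12 under that centring. Sprr4, the last gene of the row and known as an ultraviolet-responsive member in human skin, was above background on none of the 12 arrays. Sprr2b, Sprr2h and Sprr2k carry the AP-1 and octamer letters at nearly the places seen in Sprr2d, although Sprr2b and Sprr2k differed by 2.79 and 2.69 log2 units. The windows of Sprr2a1, Sprr2a2, Sprr2a3 and Sprr4 hold none of the letters searched. The Sprr2a1 window shares the 18 bases ACCAGCCCATTACAGGGA with the Sprr2b window, but 85 bases further downstream, so the 2 windows do not cover matching stretches.

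Each probe is annotated to a single gene. The probes' own sequences were not used here, so whether a probe also binds the transcript of a close paralog, in particular among the Sprr2 genes, was not tested. The Sprr2 probes did not all differ alike, since their differences ran from −0.06 for the first Sprr2a1 probe to 8.48 for Sprr2d.

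**Figure D3:**
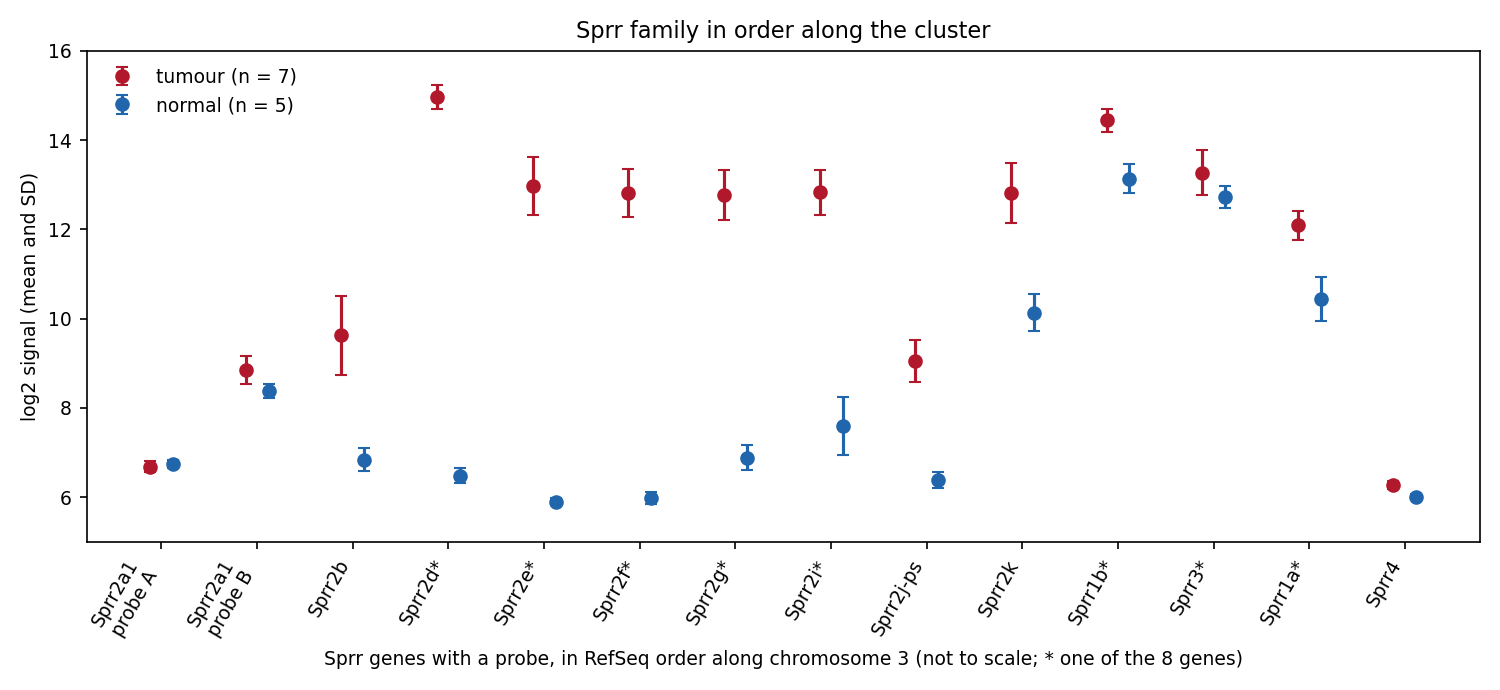
Mean log2 signal with SD of every Sprr probe on the array, in RefSeq order along chromosome 3, for 7 tumours (red, left of each pair) and 5 normals (blue), with an asterisk at the 8 genes. The wide gaps run from Sprr2d to Sprr2i in the middle of the row, with gaps under 3 log2 units on both sides and none past the background at Sprr4.

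The partners of the small proline-rich proteins in the envelope moved in both directions. Of 48 listed names 31 were measured, and limma called 7 higher and 4 lower, with 20 not called and a median difference of −0.34, beside 32.5% called higher, 23.6% called lower and a median of 0.07 over all genes. Centred on reference genes, the same list had 3 higher and 20 lower, beside 6.93% higher and 70.1% lower over all genes under that centring. When single arrays were left out, the number called lower ran from 1 (without normal 2, 4 or 5) to 6 (without tumour 4), with 2 without normal 3, tumour 2 or tumour 3. The list was chosen with earlier results of these data known, so these counts describe it only.

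Large precursors to which Sprr proteins are joined were not called higher. Lor (loricrin, the main envelope protein of epidermis) averaged 14.77 ± 0.53 in tumours (SD, n = 7) and 14.92 ± 0.13 in normals (SD, n = 5), with a difference of −0.15 (SE 0.22, limma adjusted p = 0.590), and the sign turned without tumour 7 (0.03). With arrays centred on reference genes Lor was called lower (−0.76, adjusted p = 0.0256). The normal mean of Lor lay close to the array maximum of 15.33, so a rise of Lor could hardly have been seen. Ivl (involucrin, an early scaffold of the envelope) was called lower by limma, at −0.47 (SE 0.16, adjusted p = 0.0259), and was above background in 2 of 7 tumours against 5 of 5 normals. Flg (filaggrin) had no probe here.

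Late envelope proteins, a family that neighbours the Sprr genes, went both ways. Of 14 measured, 2 were called higher, 3 lower and 9 not, with a median of −0.73, beside 32.5% higher and 23.6% lower over all genes. Lce1l fell by 1.93 on the log2 scale (SE 0.60, limma adjusted p = 0.0151), Lce1i by 1.62 (adjusted p = 0.0448) and Lce1e by 0.86 (adjusted p = 0.0399), and tumour SDs for these were 0.74 to 1.54. The call for Lce1i held in 4 of 12 refits that left out 1 array, that for Lce1e in 5, and that for Ivl in 9. Lce3b, called higher at 0.69 (adjusted p = 1.03e-04), and Lce3c, at 0.51 (adjusted p = 0.00167), turned to −0.02 and −0.18 with arrays centred on reference genes.

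An enzyme and 3 calcium-linked partners were among the genes called higher. Tgm1, the transglutaminase bound to the keratinocyte membrane that joins Sprr proteins into the envelope, rose by 1.14 (SE 0.24, limma adjusted p = 0.00129), with 12.51 ± 0.54 in tumours (SD, n = 7) and 11.37 ± 0.29 in normals (SD, n = 5). Of the 3 transglutaminases measured it alone was called. Anxa1 (annexin A1), S100a11 and S100a10, calcium-binding or annexin-binding proteins found in the envelope, were called higher in 3 of 3. Anxa1 rose by 3.19 (SE 0.21, limma adjusted p = 1.26e-07), with 12.20 ± 0.50 in tumours (SD, n = 7) and 9.02 ± 0.15 in normals (SD, n = 5). S100a11 rose by 1.55 (SE 0.09, adjusted p = 7.54e-08) and S100a10 by 0.76 (SE 0.12, adjusted p = 1.34e-04), but the S100a10 call was lost with arrays centred on reference genes (0.18, adjusted p = 0.243). By position, the other coding genes of the differentiation complex on both sides of the Sprr row had 7 called higher and 8 lower of 34 measured, beside 32.5% and 23.6% of all genes, with a median of −0.42. Among them S100a9 and S100a8, also listed as neutrophil markers, rose by 7.39 and 6.55 (limma adjusted p = 2.49e-08 and 3.62e-08). Every tumour was above every normal for each, so differences of this size were not confined to Sprr genes.

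Of 25 factors known to act on Sprr promoters or on keratinocyte differentiation, 20 were measured and limma called 10 higher and 0 lower, but 4 higher and 8 lower with arrays centred on reference genes. Over all genes the shares were 32.5% higher and 23.6% lower, and 6.93% higher and 70.1% lower under that centring. At an unadjusted p under 0.05 limma had 11 higher and 1 lower, which was Fosb (an AP-1 subunit, named after its value was seen). The median difference was 0.37, beside 0.07 over all genes. Elf3, an epithelial ETS factor that activates SPRR2A in human keratinocytes, rose by 2.06 (SE 0.24, limma adjusted p = 1.01e-05), with 9.32 ± 0.56 in tumours (SD, n = 7) and 7.26 ± 0.15 in normals (SD, n = 5). Among AP-1 subunits, Junb rose by 1.64 (SE 0.21, adjusted p = 2.88e-05) and Fosl1 by 1.10 (SE 0.20, adjusted p = 3.77e-04), while Fosl1 was above background in 7 of 7 tumours and 1 of 5 normals. Other AP-1 subunits were named after their values were seen. Jund was called higher at 0.34 (limma adjusted p = 0.0129), while Jun (0.002, adjusted p = 0.991), Fos (0.74, adjusted p = 0.0724) and Fosb were not called. Pou2f3, the POU factor of the list, was not among those measured. Trp63, the lineage factor of stratified epithelium that also counts in the epithelium score, rose by 1.37 (SE 0.15, adjusted p = 7.27e-06), and Cebpa, a differentiation factor, by 0.74 (SE 0.15, adjusted p = 9.76e-04). Ets1 was called higher at 0.59 (adjusted p = 0.00402) but turned to −0.01 with arrays centred on reference genes, and the Cebpa call was lost under that centring (0.11, adjusted p = 0.428).

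Of 9 keratins of the same epithelia, all measured, 4 were called higher, 3 lower and 2 not, beside 32.5% higher and 23.6% lower over all genes. Krt1 (0.33, limma adjusted p = 0.301) and Krt13 (−0.09, adjusted p = 0.734) were those not called. Of the stress and wound keratins, Krt17 rose by 1.90 (SE 0.15, limma adjusted p = 5.33e-07), Krt6a by 1.71 (SE 0.23, adjusted p = 3.63e-05), Krt6b by 0.84 (adjusted p = 8.89e-06) and Krt16 by 0.81 (adjusted p = 1.87e-05). With arrays centred on reference genes the calls of Krt6b (0.17, adjusted p = 0.293) and Krt16 (0.13, adjusted p = 0.446) were lost. These values are from the probe of highest mean signal. As the mean over its probes, without that centring, Krt6b rose by 1.87. The probe used averaged 15.08 in tumours for Krt6b and 15.04 for Krt16. Both lay near the array maximum of 15.33, which limits the differences that could be seen. Krt76, a keratin of the differentiated oral lining, fell by 4.77 (SE 0.84, adjusted p = 3.53e-04). Krt4, a mucosal keratin, fell by 1.81 (SE 0.55, adjusted p = 0.0140), and Krt10, of cornifying epithelium, fell by 1.71 (SE 0.45, adjusted p = 0.00619).

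**Figure D4:**
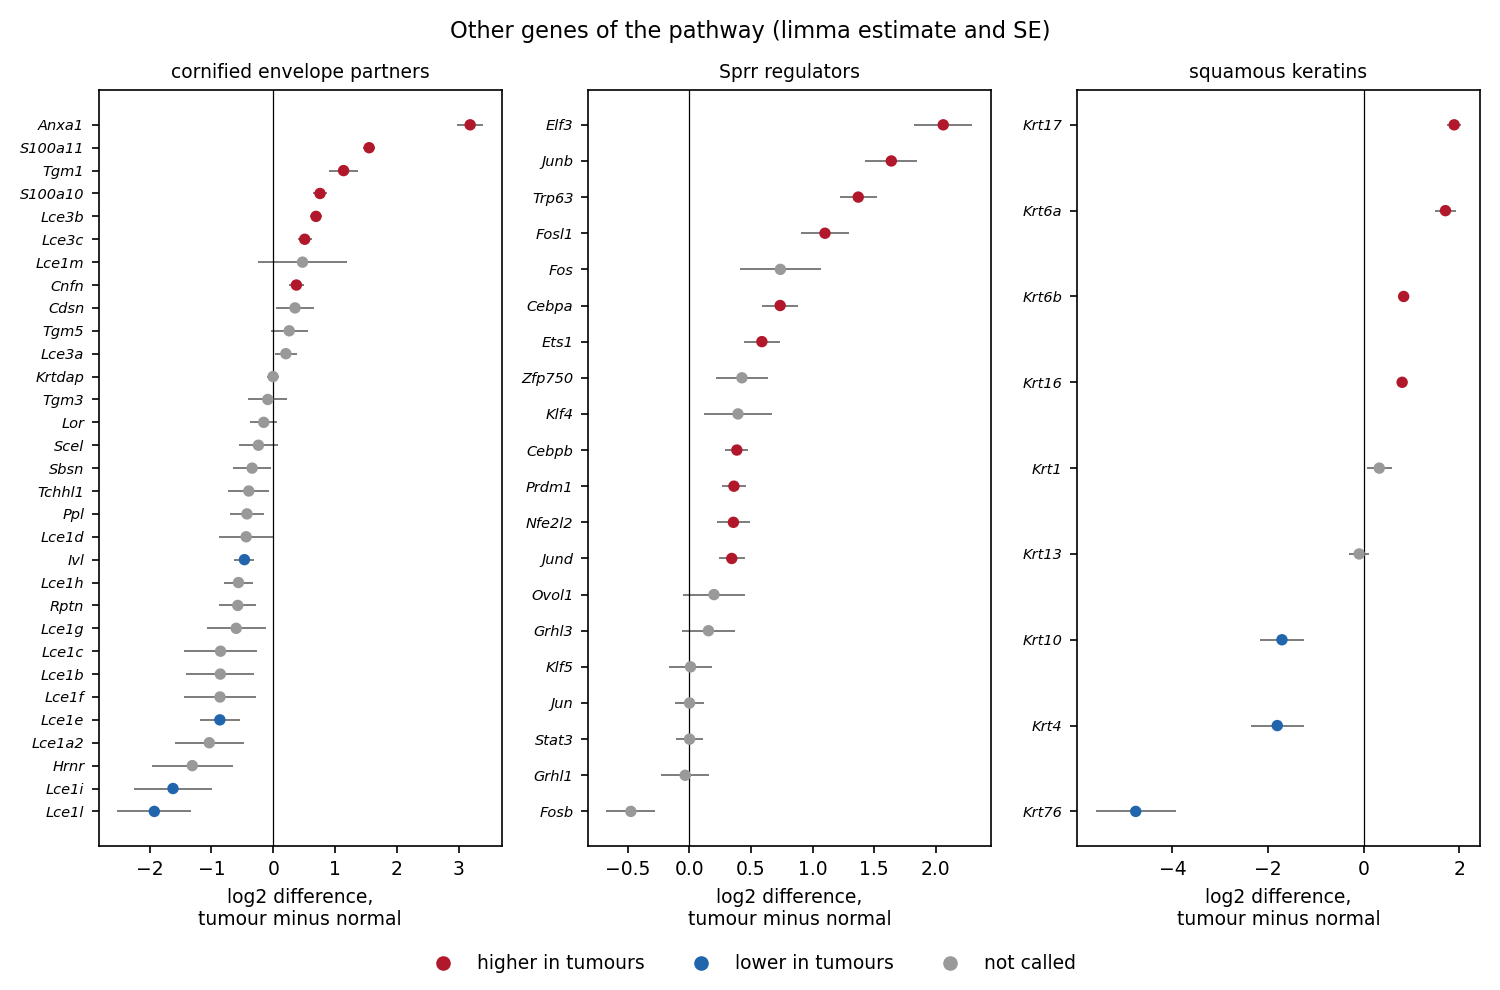
Difference between tumours and normals on the log2 scale with its SE for the envelope partners, the factors and the keratins, with red for called higher, blue for called lower and grey for not called by limma. With arrays centred on reference genes the counts become 3 higher and 20 lower for the partners, 4 higher and 8 lower for the factors and 2 higher and 4 lower for the keratins. Over all genes that centring called 6.93% higher and 70.1% lower.

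Within the 7 tumours the 8 genes did not all vary together. Tumour 7 was the highest for 6 of them and tumour 2 the lowest for 5. Tumour 7 lay above the tumour mean by 1.25 for Sprr2e and 0.90 for Sprr2f, while its deviation for Sprr3 was −0.97. The same tumour had the lowest score of the envelope partners, 10.68 against 11.37 to 12.43 in the other tumours, the lowest keratin score, 11.71 against 12.48 to 13.28, and the highest neutrophil score over 6 of 9 listed genes, 11.30 against 9.60 to 10.68. In normals the partner score was 11.62 to 12.11, the keratin score 12.87 to 13.13 and the neutrophil score 6.64 to 7.68. The neutrophil genes differed unequally between the groups, by 7.39 for S100a9, 6.55 for S100a8 and 3.37 for Lcn2. Cxcr2 differed by 1.00, Csf3r by 0.99 and Retnlg by 0.80 (limma adjusted p = 0.0988, not called). The part of these scores in the Sprr values of tumour 7 was not tested. Tumour 2, the lowest for Sprr2e, Sprr2f, Sprr2g, Sprr1a and Sprr1b, had the highest muscle score.

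**Figure D5:**
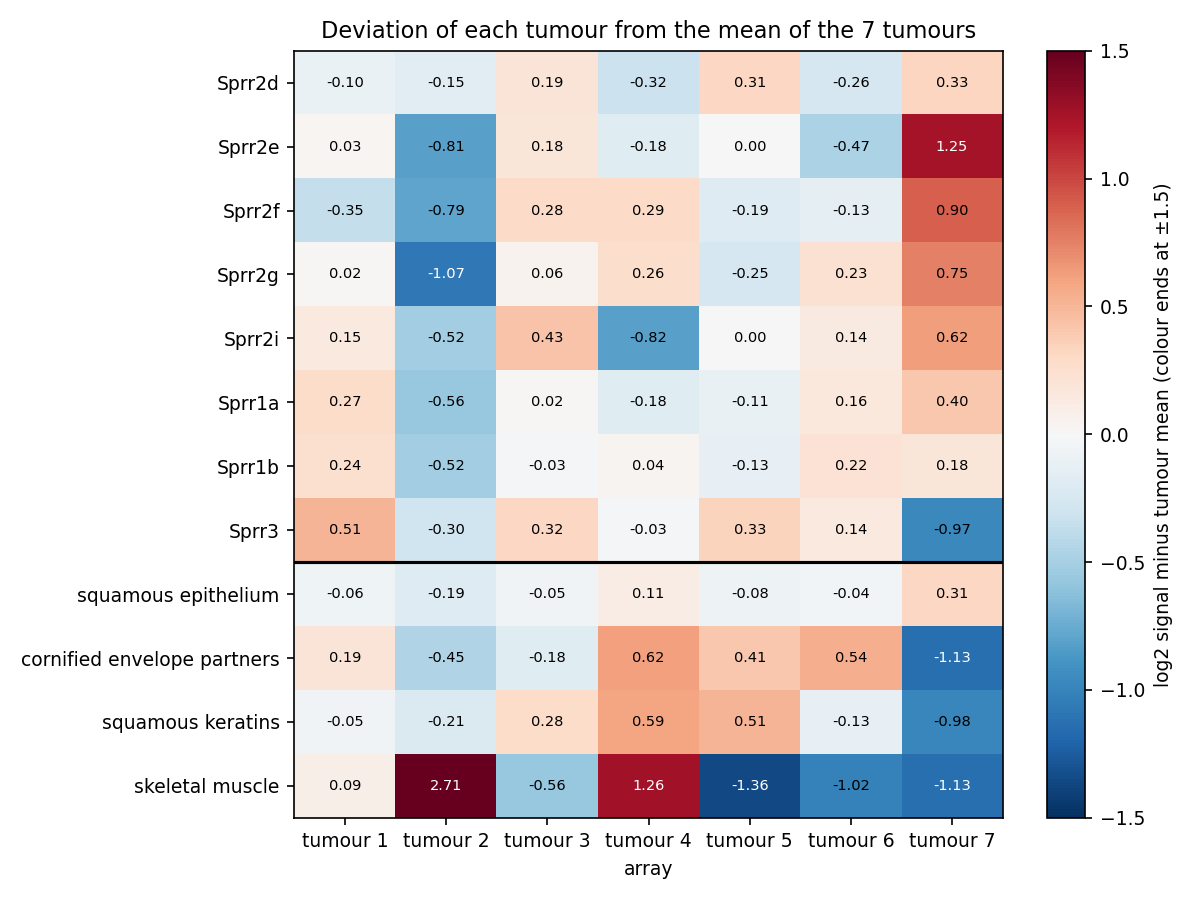
Deviation of each tumour from the mean of the 7 tumours, in log2 units, for the 8 Sprr genes and for the marker scores beneath the black line. Tumour 7 is high for the Sprr2 genes (1.25 for Sprr2e) and low for Sprr3, the partners and the keratins, and tumour 2 is low across the 8 genes while its muscle score is high.

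Correlations over the 7 tumours were computed for the 28 pairs of the 8 genes and for each gene with the epithelium and muscle scores, 44 relations in all. Every p is from a two-sided exact permutation test over all orders of the tumours and is adjusted over the 44. Of the 28 pairs 22 were positive, with r of −0.50 to 0.91 and a median of 0.51. None passed an adjusted p of 0.05 by Pearson's r, where 7 pairs had an unadjusted p under 0.05, and none by Spearman's rho. Sprr1a and Sprr1b were the closest pair (r = 0.91, exact p = 0.00615, adjusted p = 0.126, and rho = 0.79, exact p = 0.0480, adjusted p = 0.352), and r was 0.80 without tumours 2 and 7. Sprr2f and Sprr2g came next (r = 0.89, exact p = 0.0131, adjusted p = 0.126, and rho = 0.93, exact p = 0.00675, adjusted p = 0.0989), but r was 0.47 without tumours 2 and 7, so the relation rests on those tumours. Sprr3 and Sprr2f had the lowest r of the pairs (r = −0.50, exact p = 0.257, adjusted p = 0.369, and rho = −0.43, exact p = 0.354, adjusted p = 0.622), and r was −0.65 without tumours 2 and 7.

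With the epithelium score, Sprr2g had the same order over the 7 tumours (rho = 1, exact p = 0.000397, the smallest that 7 tumours can give, adjusted p = 0.0175). Its r was 0.86 (exact p = 0.0185, adjusted p = 0.126), and 0.995 without tumours 4 and 7. This was the single relation past the threshold of 44, and it did not pass on the deposited values as they are (rho = 0.86, exact adjusted p = 0.349) or with arrays centred on reference genes (rho = 0.82, exact adjusted p = 0.602). It also missed the threshold with 75th percentile centring, cyclic loess and the mean over probes, and over all settings the exact adjusted p ran from 0.0175 to 0.646. Sprr2f had r = 0.92 with the score (exact p = 0.00337, adjusted p = 0.126) and rho = 0.93 (exact p = 0.00675, adjusted p = 0.0989), and r was 0.82 without tumours 4 and 7. Sprr3 had r = −0.67 with it (exact p = 0.104, adjusted p = 0.254) and rho = −0.43 (exact p = 0.354, adjusted p = 0.622), and r was 0.81 without tumours 4 and 7, so its sign rests on those tumours. Against the muscle score r was negative for all 8 genes, down to −0.77 for Sprr2i (exact p = 0.0440, adjusted p = 0.176, and rho = −0.50, exact p = 0.267, adjusted p = 0.617). Without tumours 2 and 4 the r of Sprr2i was −0.02, so the relation rests on those tumours.

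Genes whose values were most like those of each Sprr gene over the 7 tumours were taken by Pearson's r, the 2 highest of 10775 genes for each, as a description without a test. Sprr2e was nearest to Pola2 (r = 0.99), a subunit of DNA polymerase alpha, and Hirip3 (r = 0.99), and Sprr2f to Mybl2 (r = 0.98), a factor of cycling cells, and Ube2t (r = 0.98), a ubiquitin-conjugating enzyme. Sprr2g was nearest to Asf1b (r = 0.98), a histone chaperone, and Pgam1 (r = 0.97), an enzyme of glycolysis. Sprr2d was nearest to Mdga1 (r = 0.98) and C2cd3 (r = 0.97), and Sprr2i to Atp10d (r = 0.99) and Lcn2 (r = 0.95), a protein of neutrophils and inflamed epithelium. Sprr1a was nearest to Gabpb2 (r = 0.98) and Prpf3 (r = 0.98), Sprr1b to Psg17 (r = 0.98) and Ptpn1 (r = 0.98), and Sprr3 to Ckb (r = 0.99), the brain-type creatine kinase, and Irgm1 (r = 0.96). With 7 tumours such values are common, since 134 genes had r over 0.9 with Sprr2e and 13 with Sprr3. Some of the genes named lay near background in the tumours. Psg17 had 6.29 to 6.63, Mdga1 6.38 to 6.70, Ube2t 6.39 to 6.86 and Gabpb2 6.50 to 6.92, so their r rests on small changes in low signal.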

How the data were processed

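The values used were log2 signals of 25697 probes on 12 arrays, as deposited by the authors. Their base was inferred from their range, and all arrays shared a median of 6.56. Per the submitters' processing notes, BeadStudio and Partek 6.6 took part, with no role given. A separate table with detection p-values was not used here, since none of its 24 sample columns carries a name found in the labels.

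After a return to linear scale the signals went through normexp (offset 50), quantile normalisation and log2. Background on an array was its mode plus 1.64 SD of the lower side, and probes above it on 5 or more arrays were retained (15702, or 61.1%). A gene took its probe of highest mean signal, giving 10787 genes. The number of arrays limits the precision.

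Tumours and normals were compared by limma 3.58.1 under R 4.3.3, two-sided and without a block. P-values were adjusted by Benjamini-Hochberg over retained probes, with a threshold of 0.05. With no normal array above background, the fold was set against the background threshold as a lower bound, for this offset and scaling only. On data simulated with the spread of the normals in each group, the fit recovered 95% of changes of log2 1 over 15702 probes. Tumours varied more for genes such as Krt76 (SD 2.08 in tumours, 0.20 in normals). That share does not apply to such genes. The platform annotation gave a single symbol for 23978 probes and none for 1719. Gene order and promoter windows came from RefSeq on GRCm38.p6, searched in Python 3.11.15 and aligned with Biopython 1.88. Figures were drawn with matplotlib 3.10.9.

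The members and lists were chosen with earlier results of these data known. Genes named are all Sprr genes on the array, up to 6 called genes per list and direction by size, Lor, Ivl, Flg and Tgm1 in any case, and the 2 genes nearest to each member over the tumours. Single genes of the neutrophil and squamous epithelium lists, apart from Trp63 and Lcn2, were named after their values were seen. Alternatives tried were other background, scaling and filter settings, the mean over probes, array weights, a replicate block and leaving out arrays.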

Additional observations from a re-analysis of the deposited data

Results flagged for a closer look

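Of 38 sets of values (the Sprr probes and the list scores, in tumours and in normals) 5 had a single array far from the rest by Dixon's test, where chance gives about 1 in 20. Normal 1, the piece with the high salivary score, stood apart in 3 of them. For Sprr2i it had 6.45, with 7.71 to 8.12 in the other normals. For Sprr2k it had 9.41, with 10.23 to 10.37 in the others. Its envelope partner score was 11.62, with 11.98 to 12.11 in the others. Tumour 2, the piece with the highest muscle score of the tumours, had a score of the Sprr-linked factors of 9.53, with 9.85 to 10.05 in the other tumours. Normal 3 had a neutrophil score of 7.68, with 6.64 to 6.94 in the other normals, and all were below the lowest tumour score of 9.60. The causes were not tested.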

How the results depend on the processing

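The sign of the 8 Sprr differences held in 71 of 72 values over the 9 settings that can change them, the exception being Sprr3 (−0.14) with arrays centred on reference genes. Their sizes did depend on the settings. With a background offset of 16 the differences were 9.18 for Sprr2d, 8.29 for Sprr2e, 7.93 for Sprr2f and 6.38 for Sprr2g. The folds given, bounds included, therefore belong to the offset and scaling used. With arrays centred on reference genes these 4 differences were 7.83, 6.39, 6.16 and 5.22. That centring also moved the median of the 8 to 4.90, all genes to 748 called higher and 7564 lower, the partners to 3 higher and 20 lower, the factors to 4 higher and 8 lower, and the keratins to 2 higher. It turned Lce3b (−0.016), Lce3c (−0.18), Ets1 (−0.010) and the second Sprr2a1 probe ILMN_3150677 (−0.12), called the first Sprr2a1 probe (−0.71) and Lor (−0.76) lower, and ended the calls of S100a10, Cebpa, Krt6b and Krt16 (0.11 to 0.18). The share called higher among called genes was 58.0%, and 46.3% with cyclic loess. The partners had 7 called lower under cyclic loess, 2 with no filter and 1 to 6 when an array was left out (1 without normal 2, 4 or 5, 2 without normal 3 or tumour 2 or 3, 6 without tumour 4). The factors had 1 called lower with 75th percentile centring, cyclic loess, array weights, the replicate block, or without normal 1 and tumour 2, and 0 to 1 when an array was left out (1 without normal 1 or tumour 7). The Spearman relation past the threshold became 0 on the deposited values, with 75th percentile centring, reference centring, cyclic loess and the mean over probes. It also became 0 without normal 1 and tumour 2, and was 0 to 1 over the leave-outs, 0 whenever a tumour was left out. In the refits without a tumour rho stayed 1 with an exact adjusted p of 0.122. With 1 tumour fewer, a perfect order that stands alone among the 44 relations gives no lower adjusted p. Those refits therefore could not pass and do not test the relation. The first Sprr2a1 probe, ILMN_3071908, was 0.21 as the mean over both probes. Lor turned to 0.11 under the replicate block and ran from −0.21 to 0.034 over the leave-outs, above 0 without tumour 7. The replicate numbers do not pair the samples (same-number correlations of −0.37 to 0.08), and with the block limma called 3140 genes higher and 2353 lower. A slide block was not run, since headers give none. Causes were not tested.

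Values near the array maximum of 15.33 bound the differences of strong probes, and signal near background bounds those of Sprr2e and Sprr2f from below. Sprr2d and Sprr2i were above background in 4 of 5 normals, so their normal levels also lay partly at the floor. Bulk tissue, probes of close paralogs and the unstated number of animals limit all comparisons.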
